A study of Mus musculus with 2 samples.

Results

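Cells carry proteins that detect RNA or DNA in places where it should not be, and the transcripts of 10 genes of this system were followed here in fibro-adipogenic progenitors (FAPs), the muscle-resident stromal cells that can become adipocytes. The genes were taken by name: the RNA sensors Ddx58, Ifih1, Dhx58, Tlr3 and Eif2ak2, the DNA sensing genes Cgas and Sting1, the nuclease Trex1, the adaptor Mavs and the kinase Tbk1. All 10 were present among the 26082 genes of the deposited tables, each under the symbol given here.

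RNA was sequenced from primary wild-type mouse FAPs that had been transfected either with plasmids for TGFBR3 overexpression or with the vector alone, 1 library each. Both cultures were under adipogenic differentiation by their labels, with insulin at 10 μg/ml, dexamethasone at 0.25 μM and IBMX at 0.5 mM added to DMEM that held 20% serum (FBS). The study isolated such cells by sorting from the hind limb muscles of C57BL/6 mice bought at 6 to 8 weeks of age, and the sources used here do not say how many mice or cultures entered a library. The vector control also received plasmid DNA, and untransfected cells were not analysed here.

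Foreign or misplaced nucleic acid is detected at several sites of the cell. In the cytosol, RIG-I and MDA5, encoded by Ddx58 and Ifih1, bind double-stranded RNA and signal through MAVS on mitochondria, while TLR3 does so in endosomes through another adaptor. Cytosolic DNA activates cGAS, whose cyclic dinucleotide product opens the STING pathway. Both routes meet at the kinase TBK1, which phosphorylates IRF3 and so turns on type I interferon genes. Several of the sensors are themselves interferon-induced, which makes the system self-amplifying, and TREX1 degrades cytosolic DNA and holds it in check.

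A single library stands for each condition, so differences could not be set against a spread between replicates, and p-values are absent. The total of the deposited counts was 62321027 for the library labelled TGFBR3 overexpression (OE-labelled) and 83779203 for the one labelled vector control (vector-labelled). Tgfbr3 itself had an FPKM (the count scaled by gene length and library total) of 36.9 in the first and 35.1 in the second. The log2 ratio was 0.07, so Tgfbr3 as counted was not raised and the libraries are called by their labels. The paper lists an RT-PCR of TGFBR3 in FAPs given the overexpression plasmids or vectors, without saying whether these cultures were used. The sources used here do not say whether a transcript of the plasmid would be counted under Tgfbr3. Changes are log2 ratios of (FPKM + 1), which understate the change of low genes, and 2-fold means a log2 ratio of at least 1. Folds are plain ratios of FPKM with the exact 95% Clopper-Pearson interval of the gene's counts, which covers counting error only. The median log2 ratio was 0.13 over the 10626 genes whose FPKM reached 1 in each library, and centred values have this shift removed. In bulk RNA, fewer cells of a type and less RNA per cell cannot be told apart.

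Of the 8 FAP and stromal marker genes examined, Pdgfra, Ly6a, Cd34, Pdgfrb, Dcn, Col1a1 and Col3a1 were well measured in both libraries, whereas Lum was nearly absent, with 45 and 8 counts. Their summed FPKM was 1734 in the OE-labelled library and 1945 in the vector-labelled one, but single genes went both ways, 3 higher and 5 lower. Col3a1 was 2-fold lower in the former, at 95.8 against 199.5. Col1a1 was also lower, at 467.5 against 870, and Ly6a was higher, at 1012.7 against 706.4. The part of stromal composition in the results was not tested. The 9 macrophage and leukocyte markers summed to an FPKM of 0.91 in the OE-labelled library and 0.54 in the other. The highest single value was 0.46, in Csf1r, Ptprc was listed at an FPKM of 0 in both, and Adgre1, Tyrobp and Fcer1g had no count in either. The 4 plasmacytoid dendritic cell markers that were measured summed to 0.30 and 0.37, and the 5 endothelial markers to 2.17 and 2.03. Within the latter, Kdr was at 0.43 and 0.08 and Cdh5 at 0.58 and 0.84, in opposite directions, and the part of these cells in the results was not tested. Of the 5 muscle cell markers only Des and Myog were in the tables, summing to 1.13 and 0.81, and the 4 T cell markers were not analysed here.

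The promoter sequences of these genes are shown first because several sensors are known interferon targets, and interferon-activated factors bind repeats of the letters GAAA. Windows from 250 bases before to 50 bases after the RefSeq start site (GRCm38.p6, the assembly of mm10) were searched on both strands for GAAANNGAAA. This motif was held by 3.44% of all 32851 windows, or in at least 1 window by 3.99% of 27025 genes, and by 3 of the 8 members examined, Ddx58, Ifih1 and Eif2ak2. Dhx58 has no window in the table, and Sting1 was not examined. The lines give 30 bases, 5′ to 3′ on the strand of the gene, with the match, or the nearest stretch where there was none, in capitals.

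Ddx58: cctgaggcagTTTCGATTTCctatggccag

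Ifih1: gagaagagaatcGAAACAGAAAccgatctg

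Eif2ak2: agtccgccggGAAAACGAAAcagaagagaa

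Tlr3: agtgaatggcTTTCACTTTGtttagacaca

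Tbk1: aagcgacgttGAAACACAAAcccgccccat

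In Ddx58 (chromosome 4, 40239804 to 40239833, minus strand) the match lay on the strand opposite to the gene, from base 3 to base 12 after the start. In Ifih1 (chromosome 2, 62646206 to 62646235, minus strand) it lay from base 33 to base 42 after the start. In Eif2ak2 (chromosome 17, 78882535 to 78882564, minus strand) it lay from base 19 to base 28. The Tlr3 (chromosome 8, 45410420 to 45410449, minus strand) and Tbk1 (chromosome 10, 121586970 to 121586999, minus strand) lines show the closest stretch of windows without a match, which missed 1 of the 8 fixed letters; as many as 35.4% of all windows come that close. The nearest stretches of Cgas and of both Trex1 windows missed 2 letters and that of Mavs missed 3. The RefSeq window of Tlr3, 45410331 to 45410630, does not reach the start of its GENCODE gene, at 45411080 on the minus strand. These matches describe the letters in these windows and are not evidence of binding.

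Among the 10 genes, 5 were at least 2-fold higher in the OE-labelled library, against 1.93% of all 18925 genes tested, and 0 were 2-fold lower, against 0.655%. A gene was tested when its counts summed to at least 10 over both libraries, which all 10 members did. The higher genes were Ifih1, Dhx58, Ddx58, Tlr3 and Trex1, that is, the cytosolic helicases of the RIG-I family, the endosomal RNA receptor and the DNA nuclease. Eif2ak2 fell just short, Tbk1 (1.56-fold) and Cgas (1.57-fold, but at an FPKM below 1) had smaller folds, and Mavs and Sting1 had ratios near 0. The median log2 ratio of the 10 was 1.10, against 0.08 for all genes tested. The summed FPKM of the 10 was 181.3 in the OE-labelled library and 86.4 in the vector-labelled library.

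**Figure D1:**
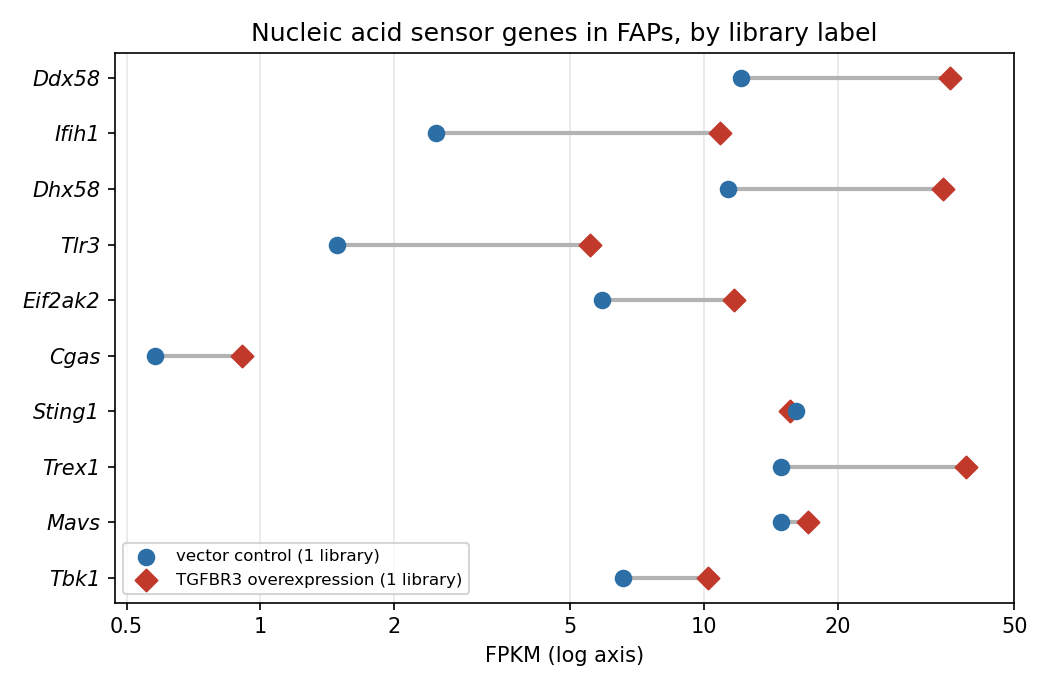
FPKM of each sensor gene (log axis) in the OE-labelled library (diamonds) and in the vector-labelled library (circles), 1 library each and therefore without error bars. The lines are longest for Ifih1 (2.49 to 10.9) and Tlr3 (1.49 to 5.53), and the Sting1 symbols overlap (16.1 and 15.6).

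All 3 RIG-I-like receptors were more than 2-fold higher in the OE-labelled library. Ddx58, which encodes RIG-I, the sensor of RNA with 5′ triphosphate ends, had an FPKM of 35.9 in the OE-labelled library and 12.1 in the vector-labelled library, from 17167 and 7900 counts. It was 2.96-fold higher (95% CI 2.88 to 3.04), with a log2 ratio of 1.49. Ifih1, which encodes MDA5, the sensor of long double-stranded RNA, had FPKM values of 10.9 and 2.49, from 6011 and 1877 counts. This was the largest fold of the set, 4.36 (95% CI 4.14 to 4.59), with a log2 ratio of 1.76. Dhx58 encodes LGP2, which lacks the signalling domains of the other two and modulates them. Its FPKM was 34.5 and 11.3, from 7666 and 3422 counts, and the fold was 3.05 (95% CI 2.93 to 3.18).

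The intervals of Ddx58 and Dhx58 overlap, whereas that of Ifih1 lies above both. The ratio of Ddx58 to Ifih1 on the FPKM scale was accordingly lower in the OE-labelled library, at 3.31, than in the vector-labelled library, at 4.87. The ratio of Ddx58 to Dhx58 was 1.04 and 1.07. Of all genes tested, 0.523% had a log2 ratio at least as high as that of Ifih1, 0.692% as that of Dhx58 and 0.740% as that of Ddx58. The 3 genes lie on chromosomes 2, 11 and 4 of mm10, so that they are not neighbours.

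MAVS, the mitochondrial adaptor through which RIG-I and MDA5 signal, differed little between the libraries. Mavs had an FPKM of 17.2 and 14.9, from 3898 and 4612 counts, a fold of 1.15 (95% CI 1.10 to 1.20). Its log2 ratio was 0.19 and the centred value 0.06, which is close to the median gene. The summed FPKM of Ddx58, Ifih1 and Dhx58 was 81.3 in the OE-labelled library and 25.9 in the other. Per unit of Mavs this sum was 4.73 and 1.74, so that the 3 transcripts together exceeded the adaptor transcript in both libraries. In the vector-labelled library each of the 3 alone lay below Mavs, at 12.1 for Ddx58, 2.49 for Ifih1 and 11.3 for Dhx58.

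Tlr3, the endosomal receptor of double-stranded RNA, was low in the vector-labelled library. Its FPKM was 5.53 against 1.49, from 1954 and 717 counts, a fold of 3.71 (95% CI 3.41 to 4.05), and the log2 ratio was 1.39. Its ratio was also the one that dropped most when base composition was taken into account. Over 11213 genes whose mean FPKM reached 1, the median log2 ratio went from 0.42 in the lowest of 20 bins of transcript GC content to −0.26 in the highest. The longest Tlr3 transcript has 40.0% GC, the lowest of the 10 members. With the trend removed, the log2 ratio of (FPKM + 1) of Tlr3 was 0.97, short of 2-fold. Without the added 1 the log2 ratio of Tlr3 was 1.89, and the trend was not removed from that value.

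Eif2ak2 encodes PKR, a kinase that binds double-stranded RNA and halts translation by phosphorylating eIF2α. Its FPKM was 11.7 and 5.88, from 4063 and 2780 counts, a fold of 1.99. The log2 ratio of 0.89 (95% CI 0.82 to 0.95) lay above those of all but 2.69% of the genes tested, and it was 0.76 after centring and 0.53 with the GC trend removed. By the log2 ratio of (FPKM + 1), Tlr3 and Eif2ak2 stand on either side of the 2-fold line, at 1.39 and 0.89, with Trex1 between them at 1.32. With the GC trend removed from this ratio, both Tlr3 (0.97) and Eif2ak2 (0.53) lay below that line.

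The DNA sensing arm divided. Cgas, which encodes the cytosolic DNA sensor, was the lowest member in both libraries, with an FPKM of 0.91 and 0.58 from 254 and 223 counts. The fold was 1.57 (95% CI 1.31 to 1.89). Its log2 ratio was 0.27 with the pseudocount, 0.65 without it and −0.02 with the GC trend removed, so no direction is given. The trend was removed from the ratio with the pseudocount. It was estimated on genes whose mean FPKM reached 1, which Cgas did not. Sting1, the receptor of the dinucleotide that cGAS makes, had an FPKM of 15.6 and 16.1 from 2905 and 4089 counts. Its fold of 0.967 (95% CI 0.922 to 1.01) has an interval that includes no change, while the centred log2 ratio was −0.17. It was the highest of the 10 in the vector-labelled library and the fifth in the other, and it lies on chromosome 18 of mm10, from 35733679 to 35740554.

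Trex1, the exonuclease that removes cytosolic DNA before cGAS can bind it, had the highest FPKM of the set in the OE-labelled library, 38.9 against 14.9, from 3026 and 1584 counts. It was 2.60-fold higher (95% CI 2.45 to 2.77), with a log2 ratio of 1.32. The ratio of Trex1 to Cgas was 42.7 in this library and 25.8 in the vector-labelled library. These Trex1 values carry a limit of annotation. The gene (chromosome 9 of mm10, 109057933 to 109059734) lies inside Atrip on the same strand, and all of its 1147 exon bases are also exon bases of Atrip, so that a read there could belong to either gene. Atrip, examined for this reason after the values were seen, had 1653 and 1858 counts, fewer than Trex1 in the former library and more in the latter, and a log2 ratio of 0.21. Whether the assignment of reads to both genes differed between the libraries was not tested.

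Tbk1, the kinase shared by the MAVS, STING and TLR3 routes, had an FPKM of 10.2 and 6.57 from 2715 and 2374 counts. The fold was 1.56 (95% CI 1.47 to 1.65), the log2 ratio 0.57 and the centred value 0.44. With the GC trend removed it was 0.28. Of all genes tested, 9.30% had a ratio at least as high, which places Tbk1 well outside the group of 2-fold genes but above Mavs, which 35.8% of the genes matched or exceeded.

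**Figure D2:**
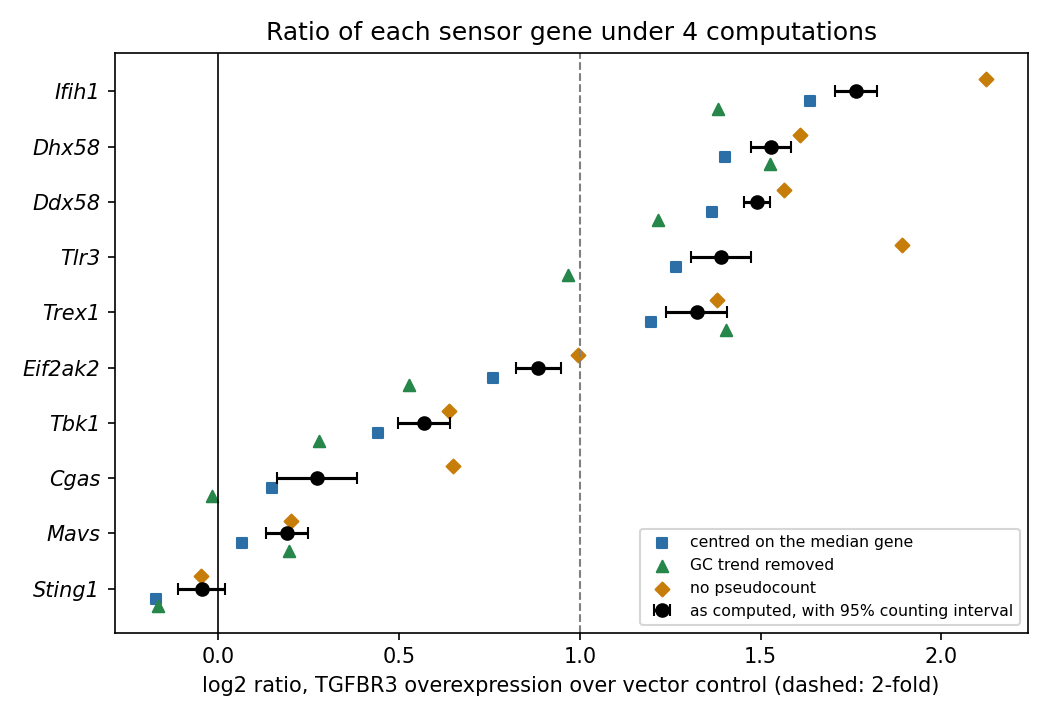
Log2 ratio of each sensor gene, OE-labelled library over vector-labelled library, as computed from FPKM + 1 (circles, bars: 95% counting interval), centred on the median gene (squares), with the GC trend removed (triangles) and without a pseudocount (diamonds). Ifih1, Dhx58, Ddx58 and Trex1 lie beyond the dashed 2-fold line in all 4, Tlr3 falls to 0.97 in 1 of them, Cgas ranges from −0.02 to 0.65, and Sting1 lies near 0.

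The order of the levels was not the same in both libraries. In the vector-labelled library the order of FPKM was Sting1, Trex1, Mavs, Ddx58, Dhx58, Tbk1, Eif2ak2, Ifih1, Tlr3 and Cgas. The first 3, between 14.9 and 16.1, were close: the Poisson interval of Trex1 overlapped those of Sting1 and Mavs, while Sting1 and Mavs did not overlap. In the OE-labelled library it was Trex1, Ddx58, Dhx58, Mavs, Sting1, Eif2ak2, Ifih1, Tbk1, Tlr3 and Cgas, and of the neighbours in this order only Ifih1 and Tbk1 had overlapping intervals. The adaptors Sting1 and Mavs together made up 35.9% of the summed FPKM of the set in the vector-labelled library and 18.1% in the other.

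Relative to all genes with more than 3 counts in a library, Ddx58 stood at the 82.1st percentile of FPKM in the vector-labelled library and at the 92.9th in the OE-labelled library. In the same order of libraries, Ifih1 stood at the 56.9th and the 79.2nd percentile and Tlr3 at the 49.6th and the 67.7th. Sting1 stood at the 85.7th and the 84.6th, and Cgas at the 37.9th and the 41.0th. RNA sensors thus ranged from average to abundant transcripts, while Cgas was below the median gene in both libraries.

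**Figure D3:**
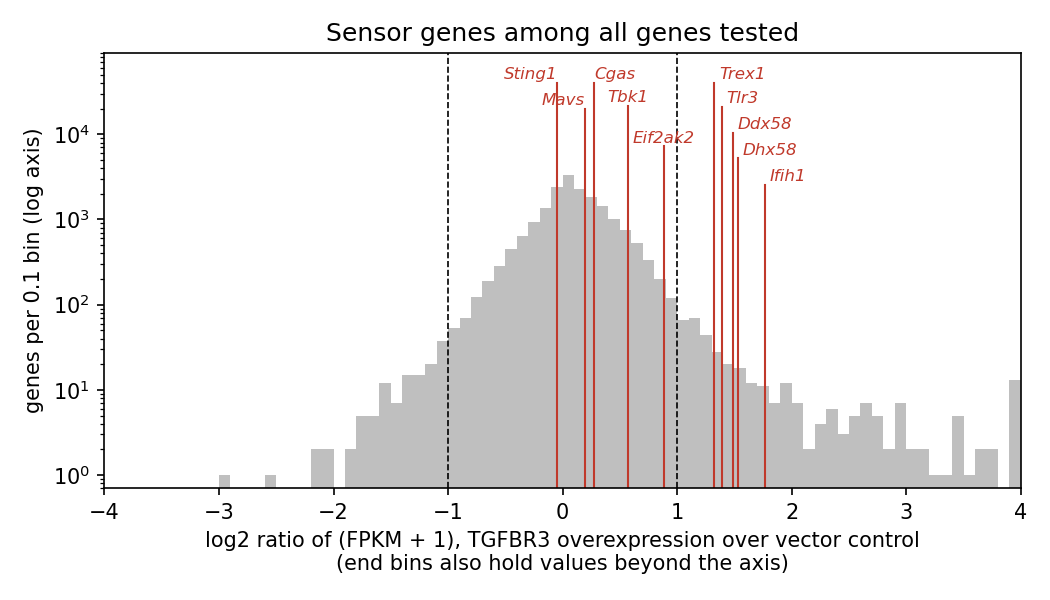
Log2 ratios of (FPKM + 1) of the 18925 genes tested (grey, genes per bin of 0.1, log axis), with the 10 sensor genes marked in red and the 2-fold lines dashed. The mass of genes lies near 0, with a median of 0.08, and Trex1, Tlr3, Ddx58, Dhx58 and Ifih1 lie from 1.32 to 1.76 in the right tail, where 1.93% of the genes are.

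The genes around the sensors were followed through 9 lists, with 178 further genes tested. Of these 178, 13 were at least 2-fold higher, against 1.93% of all genes tested, and the median log2 ratio was 0.27, against 0.08. The median of the 178 was 0.14 after centring and 0.08 with the GC trend removed. The 1 gene that was 2-fold lower is no more than the 0.655% of all genes would give. The 13 higher genes were spread over 7 of the lists, with no more than 4 in any. Without a pseudocount 26 of the 178 were 2-fold higher, where 13.2% of all genes tested were. With a pseudocount of 0.01 it was 27, where 15.1% of all genes were, so both counts are near those shares. The lists were chosen with earlier results of these data known.

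Regulators of the RIG-I-like receptors gave 4 of 24 genes at least 2-fold higher and none lower, against 1.93% and 0.655% of all genes tested. The median was 0.29, against 0.08. Ddx60, a helicase proposed to act with RIG-I, had an FPKM of 3.97 and 0.35, with a log2 ratio of 1.88. Nlrc5, better known as the activator of MHC class I genes, had 6.24 and 1.10 and a log2 ratio of 1.79. Trim25 (1.21) and Rnf135 (1.11), which encode ubiquitin ligases that act on RIG-I, were the other two, and Rnf135 was at 0.99 after centring. Of the 26 related helicases outside the RIG-I family 0 were past 2-fold in either direction, which is near the share of all genes (1.93% higher and 0.655% lower). Their median was 0.26, and Ddx24 had the largest ratio (0.87).

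Of the other Toll-like receptors and their partners, 14 of 18 in the tables were tested and 1 was 2-fold higher, against 1.93% of all genes. That count was 3 without the pseudocount, where 13.2% of all genes were higher, and 3 with CPM, where 3.37% were. It was 0 after centring or with either trend removed. Tlr2, a receptor of bacterial lipoproteins at the cell surface, had 34.6 and 16.7 FPKM and a log2 ratio of 1.01, which was 0.88 after centring. Tlr1, which pairs with TLR2, had 1.27 and 0.41 FPKM, a ratio of 0.69 and a fold of 3.10 (95% CI 2.51 to 3.84). Tlr7, the endosomal receptor of single-stranded RNA, named after its values were seen, had 108 and 19 counts and a fold of 7.80 (95% CI 4.76 to 13.5), at an FPKM of only 0.39 and 0.05. Unc93b1, which carries the nucleic acid sensing receptors to endosomes, had one of 0.61, and Myd88, the adaptor of most of these receptors, one of 0.49. Tlr8 and Tlr12 had no count in either library.

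Of 23 other cytosolic sensors, 2 were at least 2-fold higher, against 1.93% of all genes tested. Zbp1, a sensor of left-handed nucleic acid that can start cell death, had an FPKM of 83.5 and 19.5, with a log2 ratio of 2.05. Ifi204, a DNA-binding protein of the PYHIN family, had 92.5 and 16.8 and a ratio of 2.39, but 34.6% of its words of 31 bases recur in other transcripts, so that its reads could have been divided among relatives. The median of this list was 0.42, or 0.30 after centring and 0.16 with the GC trend removed. Of its 23 genes, 22 had ratios above 0, where the median of all genes tested also lay, at 0.08.

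Nucleases and editors that keep self nucleic acid from being sensed gave 3 genes that were 2-fold higher and 1 that was 2-fold lower, of 18. The shares of all genes tested were 1.93% higher and 0.655% lower. Pnpt1, a ribonuclease of mitochondria, had a log2 ratio of 1.71, Adar, which edits adenosine in double-stranded RNA, one of 1.34, and Samhd1, which depletes nucleotides, one of 1.32. Rnaseh2c, a subunit of the enzyme that cuts RNA paired with DNA, was lower, at 6.43 and 18.5 FPKM, with a ratio of −1.39. It shares 22.4% of its 31-base words with other transcripts, and Adar shares 15.4%.

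Regulators of cGAS and STING had a median of 0.04, against 0.08 for all genes tested. Among them 1 of 25 genes was 2-fold higher, against 1.93% of all genes. That gene was Usp18, which removes ISG15 from proteins and restrains the interferon receptor, with 142.5 and 20.0 FPKM and a log2 ratio of 2.77. The next in size were Abcc1, an exporter of the cGAS product, at 0.47, and the ubiquitin ligases Trim56 and Trim32, both at 0.39.

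Downstream of the adaptors, 1 of 28 signalling genes was 2-fold higher, against 1.93% of all genes tested. Without the pseudocount it was 5 of 28, where 13.2% of all genes tested were higher. The median was 0.41, against 0.08 for all genes tested, and was 0.16 with the GC trend removed. Irf7, the interferon-induced partner of IRF3, had 278.7 and 21.0 FPKM and the largest ratio of all lists, 3.67. Ikbke, which encodes the kinase related to TBK1, had 12.4 and 6.12 and a ratio of 0.91, and Tnfaip3, a brake on this signalling, had a ratio of 0.92. Irf3, the TBK1 substrate, was named after its values were seen, and had 5.71 and 8.76 FPKM with a ratio of −0.54.

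The genes around PKR gave 1 of 20 genes 2-fold higher, against 1.93% of all genes tested. The median was 0.30, against 0.08. Ddit3, which encodes CHOP, a factor induced when eIF2α is phosphorylated, had 116.0 and 17.5 FPKM and a log2 ratio of 2.66. Atf4 and Ppp1r15a of the same list, named after their values were seen, had ratios of 0.02 and 0.33. These counts do not measure the phosphorylation of eIF2α. Eif2s2 and Eif2s3x, which encode subunits of eIF2, had ratios of 0.97 and 0.75. In contrast to Eif2ak2, Eif2ak3, the eIF2α kinase of endoplasmic reticulum stress, was at 3.33 and 6.30 FPKM with a ratio of −0.75.

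The interferons themselves, the products of this pathway, were scarcely measured. Of the 21 ligand genes only Ifnb1, Ifnz and Ifna4 were in the tables, and the other 18 were not analysed here. Ifnb1 had 9 counts in the OE-labelled library and 3, no more than the floor, in the other. On the scale of CPM, which divides by the library total, this was 4.03-fold higher, with a 95% counting interval from 1.01 to 23.2. Ifnz had 56 and 43 counts and Ifna4 had none. At this depth the size of any difference in Ifnb1 could not be given more closely than that interval.

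**Figure D4:**
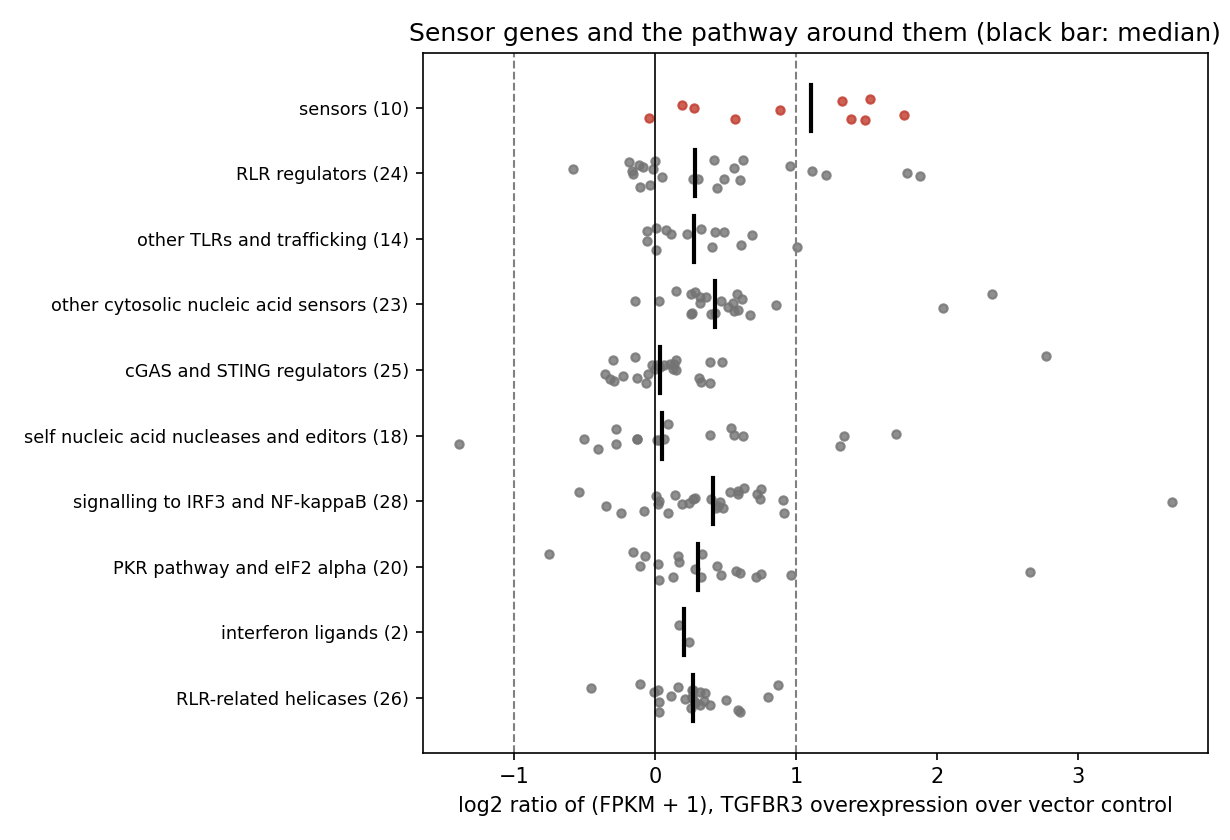
Log2 ratio of (FPKM + 1) of every tested gene in the sensor set (red) and in 9 lists of pathway genes (grey), with the number of genes in parentheses and the median as a black bar. The median is 1.10 for the sensors and between 0.04 and 0.42 for the lists, and single genes such as Irf7 (3.67), Usp18 (2.77) and Rnaseh2c (−1.39) stand apart from their lists.

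By the GENCODE annotation of mm10, the RNA sensors were Ddx58 (ENSMUSG00000040296) at chromosome 4, 40203773 to 40239828, minus strand, with 18 exon blocks, Ifih1 (ENSMUSG00000026896) at chromosome 2, 62595798 to 62646255, minus strand, with 17 exon blocks and Dhx58 (ENSMUSG00000017830) at chromosome 11, 100694884 to 100704271, minus strand, with 13 exon blocks. Also annotated were Tlr3 (ENSMUSG00000031639) at chromosome 8, 45395665 to 45411080, minus strand, with 8 exon blocks, and Eif2ak2 (ENSMUSG00000024079) at chromosome 17, 78852564 to 78882573, minus strand, with 16 exon blocks. The signalling genes were Mavs (ENSMUSG00000037523) at chromosome 2, 131234063 to 131248025, plus strand, with 9 exon blocks, and Tbk1 (ENSMUSG00000020115) at chromosome 10, 121546455 to 121586787, minus strand, with 22 exon blocks. Of the DNA arm, Cgas (ENSMUSG00000032344) lies at chromosome 9, 78430526 to 78443237, minus strand, with 5 exon blocks, and the identifiers of Sting1 and Trex1 are ENSMUSG00000024349 and ENSMUSG00000049734. The members differ in how cleanly reads could be assigned. No other annotated gene shares exon bases with Ddx58, Ifih1, Mavs, Sting1 or Tbk1. Genes on the opposite strand cover 4.31% of the exon bases of Dhx58, 7.32% of those of Tlr3, 4.32% of those of Eif2ak2 and 4.87% of those of Cgas. The share of words of 31 bases that recur outside the gene was between 0% for Mavs and 8.16% for Eif2ak2, apart from Trex1 with 97.6%.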

How the data were processed

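The authors deposited, for each of the 2 libraries, the raw count per gene and the FPKM rounded to 2 decimals. The paper's methods describe stranded mRNA libraries mapped to mm10 with STAR and counted with FeatureCounts, whereas the submitters' processing notes list cutadapt 1.9, HISAT2 2.2.1, StringTie 2.1.6, DESeq2 and edgeR. Which of these made the deposited values, the annotation release and whether the counting used the strand are not given in the sources used here. A difference in counting would matter most where genes overlap.

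From these values, log2 ratios of (FPKM + 1) and exact Clopper-Pearson intervals at the 95% level were computed with Python 3.11.15, SciPy 1.17.1 and pandas 2.3.3. Levels within a library were compared by exact Poisson intervals. Intervals shrink as counts grow, from Cgas to Ddx58, and hold none of the difference between cultures. No count model was fitted, since each group has 1 library. A library's value resting on 3 counts or fewer got no level percentile and no plain FPKM fold. Loci, exon lengths and overlaps come from GENCODE M21 on mm10, which holds 99.7% of the gene identifiers, and the GC content from the longest transcript. GC and length trends were removed only from the log2 ratios of (FPKM + 1), by the median in 20 bins of genes whose mean FPKM reached 1. The calculations were tested on simulated counts.

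The members and lists were chosen with earlier results of these data known. The text names all members, Tgfbr3, and from each list up to 4 genes by the size of the log2 ratio. Atrip, Tlr7, Irf3, Atf4, Ppp1r15a and single marker genes were named after their values were seen. Alternatives were other pseudocounts, CPM, centring, other thresholds and filters, and, added after the data were seen, removal of either trend and a ratio without pseudocount.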

Additional observations from a re-analysis of the deposited data

How the results depend on the processing

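The count of 5 members at least 2-fold higher was the same with pseudocounts of 0.1 and 0.01, with CPM, after centring, with the exon length trend removed and without a pseudocount. It was 4 with the GC trend removed, where Tlr3 was at 0.97 (the cause was not tested), 6 at a threshold of 1.5-fold and 0 at 4-fold. The median log2 ratio of the members was 1.18 with a pseudocount of 0.1, 1.19 with 0.01, 1.19 with none, 0.98 after centring, 0.99 with the length trend removed and 0.75 with the GC trend removed. No 2-fold member changed sign under these 7 settings, while Cgas was at −0.02 with the GC trend removed. The 13 of 178 further pathway genes became 22 with a pseudocount of 0.1, where 8.44% of all genes tested were higher. They became 27 with 0.01 (15.1% of all genes) and 26 with none (13.2%), which is near those shares. They were 39 at 1.5-fold (8.77%) and 5 at 4-fold (0.407%).

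Of all genes tested, the shares higher and lower were 8.44% and 2.86% with a pseudocount of 0.1, 15.1% and 6.13% with 0.01, 13.2% and 4.46% with none, and 3.37% and 1.04% with CPM. They were 1.45% and 1.03% after centring, 1.24% and 0.777% with the GC trend removed, 8.77% and 3.17% at 1.5-fold, and 0.407% and 0.0317% at 4-fold. Where only genes with a mean FPKM from 1 upwards were kept they were 3.14% and 1.03%. Low counts limit Cgas and Ifnb1 most. No paired analysis was possible because each group has 1 library.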
